A study of Mus musculus with 16 samples.

Results

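The 10 genes described here make and modify fatty acids: Acaca and Fasn build the saturated chain, Thrsp is a nuclear protein linked to that synthesis, Elovl6 and Elovl5 lengthen chains, Scd1, Scd2, Fads1 and Fads2 introduce double bonds, and Srebf1 encodes a transcription factor of the pathway. They were chosen by symbol, as every noncontrol array probe whose accession mapped to one of the 10 symbols. That found 12 probes, 3 of them for Acaca and 1 for each other gene. All 10 genes, of 20581 named genes on the array, passed the filter on dim signal (well above background on at least 2 arrays), which left 28783 features for testing.

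Gene expression was measured on 16 one-colour Agilent arrays, 1 for each combination of genotype, tissue and diet. CD11b+ cells, a myeloid fraction, were taken from spleen or bone marrow of mice that were wild type (WT) or lacked STAT4, STAT6 or HDC (histidine decarboxylase), the last 3 written STAT4-/-, STAT6-/- and HDC-/-. The mice received a control diet or a high-fat diet (HFD) for 3 months as a model of atherosclerosis, all mice were labelled male, and each array carried RNA of cells pooled from 5 mice. The sources used here do not give the strain, the age, or how the knockouts were made. With 1 array per combination, the spread came from how the HFD minus control differences varied among genotypes within a tissue. Values are log2 signals relative to the 75th percentile of the same array, a level of 0 being that percentile, and changes are differences of these log2 levels unless a fold is stated. A gene was called changed when the limma p-value, adjusted by the Benjamini-Hochberg method over all 28783 features, was under 0.05.

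Cells make palmitate from acetyl-CoA through malonyl-CoA, the step of acetyl-CoA carboxylase (Acaca), and fatty acid synthase (Fasn). Elovl6 extends palmitate to stearate, and the stearoyl-CoA desaturases Scd1 and Scd2 turn saturated chains into monounsaturated ones, while Fads2, Elovl5 and Fads1 act in turn on the essential fatty acids to give arachidonate and related polyunsaturated chains. In macrophages, SREBP1 (Srebf1) and the liver X receptors raise transcription of many of these genes, and oxysterol-activated liver X receptors raise Srebf1 itself.

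RefSeq promoter windows of 300 bases (build GRCm38.p6, from 250 bases before the start to 50 from it) were matched for 7 of the 10 genes, in 9 windows. Scd1, Scd2 and Fads1 had no entry. The windows of Fasn, which was called between the tissues, and of Srebf1, which encodes its regulator, are shown because they share a motif that few other promoters hold. Capitals mark matches, on either strand, to that motif, GGGTTACTNNCGG, which is of the type bound by liver X receptors, and to CCAAT, the core of the CCAAT box.
Fasn (chr11:120824498-120824797, minus strand): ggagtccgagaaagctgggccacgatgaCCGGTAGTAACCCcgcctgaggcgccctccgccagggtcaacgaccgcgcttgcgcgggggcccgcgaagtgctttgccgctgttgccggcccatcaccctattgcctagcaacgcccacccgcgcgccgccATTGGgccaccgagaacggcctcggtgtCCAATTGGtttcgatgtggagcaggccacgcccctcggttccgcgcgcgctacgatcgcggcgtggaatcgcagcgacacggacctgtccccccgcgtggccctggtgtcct
Srebf1, window 3 (chr11:60210422-60210721, minus strand): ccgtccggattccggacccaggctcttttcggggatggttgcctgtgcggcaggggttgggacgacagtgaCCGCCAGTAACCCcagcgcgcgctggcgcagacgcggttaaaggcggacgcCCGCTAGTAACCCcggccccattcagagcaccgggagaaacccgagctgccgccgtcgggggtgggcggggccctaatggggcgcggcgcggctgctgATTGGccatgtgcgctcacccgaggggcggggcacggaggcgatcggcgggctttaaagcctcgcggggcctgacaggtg
GGGTTACTNNCGG was chosen with these sequences in view: it is the rarest of 4 words of 8 letters, 2 free bases and 3 letters that a Fasn and a Srebf1 window had in common. It occurs in 6 of 32851 RefSeq windows of the same length (0.0183%), which include those of Fasn and Srebf1. Its rarity was the rule of choice and so is not a result. Fasn has 1 match, GGGTTACTACCGG, and Srebf1 has 2, GGGTTACTGGCGG and GGGTTACTAGCGG, all read on the opposite strand. Counted from the start site, they begin at -222 in Fasn and at -179 and -128 in Srebf1. CCAAT occurs in 37.4% of all windows and was found in those of Fasn, Elovl5, Thrsp and Srebf1, and the E-box CACGTG, in 7.15% of all windows, was found in that of Elovl5. The sterol regulatory element TCACNCCAC, in 1.24% of all windows, had no match in the 9 windows. GGGTTACTNNCGG and CCAAT do not overlap each other in either printed window, and the CCAAT matches of Fasn at -62 and -59 do. A match is a run of letters, and no binding was measured.

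Several arrays did not match their labels or their group. The mean level of Uty, Ddx3y and Eif2s3y, which lie on the Y chromosome, was between -8.39 and -5.57 on 4 arrays, the control-diet spleen and marrow arrays labelled STAT4-/- and HDC-/-, and between -0.62 and 0.35 on the other 12. The female transcript Xist was at -4.20 to -2.93 on those 4 and at -9.26 to -5.44 on the rest. In both genotypes the diet contrast therefore coincides with this difference and the causes cannot be told apart. In correlations over all features, the STAT4-/- spleen HFD array lay nearer the marrow arrays (mean r 0.970, against 0.947 with the other spleen arrays), and the HDC-/- marrow control array nearer the spleen arrays (0.954 against 0.947). Hdc read 0.98 to 1.92 on the HDC-/- arrays and 4.06 to 5.79 on the 11 others with a usable spot. Stat4 read 0.41 to 3.51 on the arrays labelled STAT4-/-, against -0.89 to 1.33 elsewhere, and Stat6 was at 2.54 to 3.04 on the STAT6-/- arrays and 2.34 to 4.14 elsewhere. Whether these probes lie in the deleted parts is not given, so the Stat4 and Stat6 signals do not check the labels. Itgam, which encodes CD11b, read 3.13 to 6.06 on all 16 arrays. Between 59.7% and 85.3% of probes were well above background per array. Both diets of a genotype shared a scan group (arrays with 1 scan time), whereas the tissues, and STAT6-/- or HDC-/- against WT, lay in different scan groups and so cannot be told apart from them.

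The first comparison was spleen against marrow. Scd1 and Fasn were higher in spleen CD11b+ cells, Scd1 by 22.3-fold and Fasn by 2.49-fold, and none of the other 8 genes was called. These 2 calls among 10 genes stood against 32% of all features called, 14.9% of all features being called higher in spleen. In bulk samples of sorted cells, fewer cells of a type and less RNA per cell cannot be told apart. The median change of the 10 genes was 0.20, against -0.06 over all features. Among the features, 4280 of 9204 calls were higher in spleen, a split that became 2111 of 10589 under an alternative called normexp here, which used the median spot signal in place of the processed signal and corrected it on the local background by the normexp method. The median of all features was then -0.53.

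**Figure D1:**
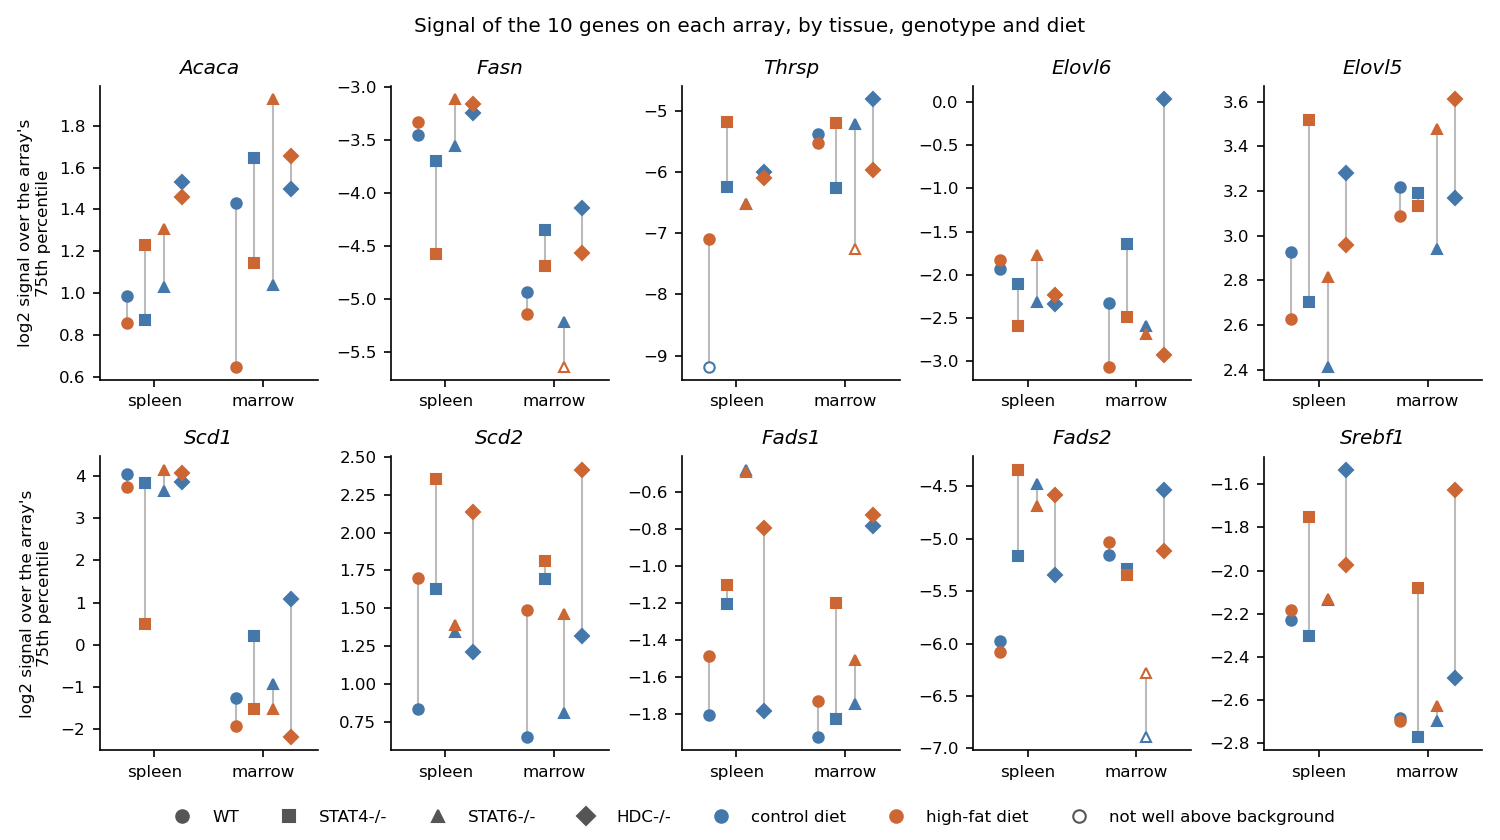
Log2 signal over the array's 75th percentile (vertical axes, 1 scale per gene) for the 10 genes on the 16 arrays, spleen on the left and marrow on the right of each panel. Markers give genotype, colours give diet, grey lines join the diets of a genotype, and open symbols were not well above background; Scd1 stood at 3.64 or above on 7 spleen arrays and at 1.09 or below on all marrow arrays.

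Acaca, which makes malonyl-CoA, was read by 1 bright probe and 2 dim ones. The bright probe had levels of 0.86 to 1.53 in spleen (median 1.13) and 0.65 to 1.93 in marrow (median 1.47), and its tissue difference was -0.21 (SE 0.21, adjusted p 0.463, limma). The marrow range enclosed the spleen range. The dim probes were well above background on 6 and 2 of the 16 arrays, with signals of 27.4 or less against 2313 or more for the bright one, and so gave no second reading of the gene.

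Fasn, the synthase that completes palmitate, ranged from -4.58 to -3.12 in spleen (median -3.39) and from -5.64 to -4.14 in marrow (median -4.81). The lowest spleen value, from the STAT4-/- HFD array, fell inside the marrow range, and the next lowest was -3.70. The tissues therefore overlapped, as they did for all but 2.56% of features. The difference was 1.32 (SE 0.18, 95% interval 0.91 to 1.73, adjusted p 0.00111, limma), higher in 8 of 8 matched pairs (9.21% of all features). Pair differences ran from 0.11 in STAT4-/- HFD to 2.52 in STAT6-/- HFD. Fasn signal was low, between 21.0 and 254 intensity units, and on the STAT6-/- marrow HFD array it was not well above background. With normexp, which starts from another signal and adds 50 units to every spot, the difference was 0.21 (adjusted p 0.492) and the call was lost.

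Thrsp, which responds to thyroid hormone and carbohydrate in lipogenic tissues, was dimmer still, at 3.57 to 53.2 units. Its levels were -9.18 to -5.18 in spleen (median -6.39) and -7.25 to -4.81 in marrow (median -5.45), and the lowest value of each tissue (WT spleen control and STAT6-/- marrow HFD) was not well above background. The tissues overlapped, with 3 of 8 pairs higher in spleen, and the difference of -0.90 (SE 0.36) had an adjusted p of 0.0776. It passed the threshold, as lower in spleen, with normexp (-0.90, adjusted p 0.0330), with quantile normalization (-1.07, adjusted p 0.0176), without the STAT4-/- marrow control array (-1.18, adjusted p 0.0355) and without the STAT6-/- marrow HFD array (-1.15, adjusted p 0.0353).

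The elongases did not pass the test. Elovl6 ranged from -2.59 to -1.77 in spleen and from -3.06 to 0.03 in marrow, with medians of -2.17 and -2.54 and a difference of 0.07 (SE 0.29, adjusted p 0.873). Its highest marrow value belonged to the HDC-/- control array, and the next was -1.65. Elovl5, which extends polyunsaturated chains, ranged from 2.41 to 3.52 in spleen and from 2.94 to 3.61 in marrow, a difference of -0.32 (SE 0.19, adjusted p 0.227) with 2 of 8 pairs higher in spleen.

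Scd1, which makes oleate and palmitoleate, had the widest spread of the 10 genes over the 16 arrays, an SD of 2.57 log2 units. In spleen it read 4.03 and 3.73 in WT (control and HFD), 3.82 and 0.48 in STAT4-/-, 3.64 and 4.14 in STAT6-/-, and 3.86 and 4.07 in HDC-/-. In marrow it read -1.26 and -1.91 in WT, 0.20 and -1.51 in STAT4-/-, -0.93 and -1.52 in STAT6-/-, and 1.09 and -2.18 in HDC-/-. Thus 7 spleen arrays lay between 3.64 and 4.14, the STAT4-/- spleen HFD array fell inside the marrow range, and the highest marrow arrays were the 2 control-diet arrays of low Y-linked signal. In signal units, the spleen median was 29646 and the marrow median 583. The difference was 4.48 (SE 0.44, 95% interval 3.49 to 5.46, adjusted p 0.000268, limma), higher in spleen in 8 of 8 pairs, with pair differences of 1.99 to 6.25. It was 5.20 (adjusted p 1.512e-05) without the 2 arrays nearer the other tissue and 4.53 (adjusted p 0.00162) without the 4 arrays of low Y-linked signal, and Fasn was then at 1.47 (adjusted p 0.000642) and 1.17 (adjusted p 0.0291).

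**Figure D2:**
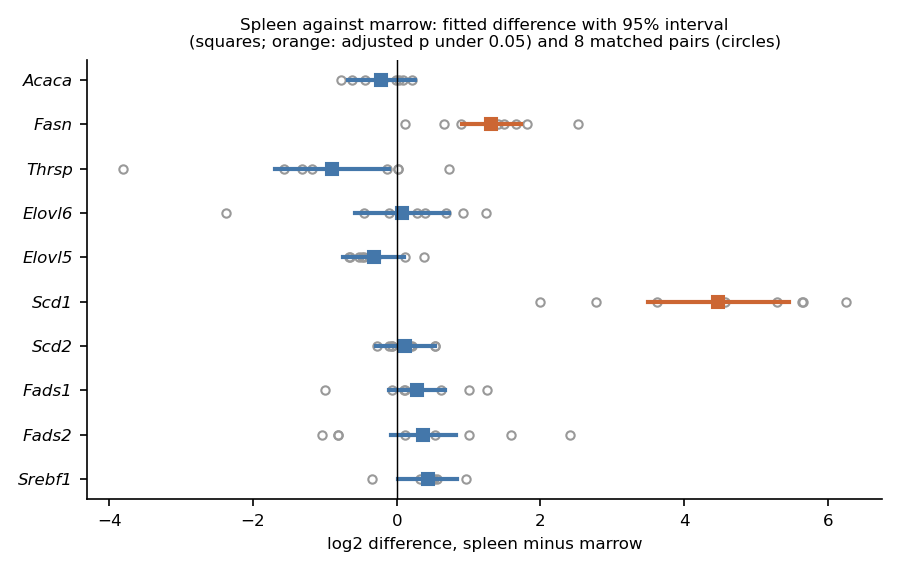
Log2 difference between spleen and marrow for each gene: squares and bars give the limma estimate with its 95% interval, circles the 8 pairs with genotype and diet in common. Scd1 (4.48) and Fasn (1.32), in orange, were called, and the other intervals, in blue, belong to genes that were not.

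The other desaturases were not called between the tissues. Scd2, a second stearoyl-CoA desaturase, ranged from 0.84 to 2.35 in spleen and from 0.65 to 2.41 in marrow, a difference of 0.12 (SE 0.18, 95% interval -0.29 to 0.53, adjusted p 0.650) with 4 of 8 pairs higher in spleen. The family members Scd3 and Scd4, measured by probes of their own, differed by 0.23 (adjusted p 0.378) and 0.25 (adjusted p 0.531). How far probes for these similar genes cross-react is unknown here, since probe sequences were not used. Fads1, the delta-5 desaturase, differed by 0.29 (SE 0.18, adjusted p 0.242), and Fads2, the delta-6 desaturase, by 0.37 (SE 0.20, adjusted p 0.190). Fads2 was dim, at 9.46 to 85.8 units, and was not well above background on either STAT6-/- marrow array.

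Srebf1 ranged from -2.30 to -1.53 in spleen (median -2.13) and from -2.77 to -1.63 in marrow (median -2.65). It was higher in spleen in 7 of 8 pairs, the HDC-/- HFD pair being the exception at -0.35. The difference was 0.43 (SE 0.19, adjusted p 0.104) and was not called.

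Marker genes of other cell types moved with the tissue. All 8 B cell markers were called higher in spleen, as were 6 of 7 T cell markers (1 lower), 7 of 7 natural killer cell markers, 8 of 8 conventional dendritic cell markers, 7 of 8 red pulp macrophage markers and 5 of 7 erythroid markers. Cell cycle genes were lower in 10 of 10 and neutrophil markers in 4 of 9, while the monocyte list had 2 lower of 7 and the eosinophil list 3 lower of 5. Pro-B and pre-B cell markers were lower in 5 of 8 and higher in 1. The mean level of the B cell list was 1.58 to 2.81 on the 7 spleen arrays with high Scd1 and -0.74 on the STAT4-/- HFD array, against -2.96 to -0.15 in marrow. The STAT4-/- HFD array was also the lowest spleen array for natural killer cell (-3.57, next -0.96) and T cell markers (-1.14, next 1.00). The same held for conventional dendritic cell markers (-2.00, next -1.29), so the B cell list was 1 of several that were low there. The HDC-/- marrow control array, which had the highest Scd1 of the marrow arrays, also had the highest B cell (-0.15) and pro-B and pre-B cell (1.89) levels there, the latter against -4.05 to -0.40 on the other marrow arrays. It was the highest marrow array for natural killer cell (-1.26), T cell (-0.93), conventional dendritic cell (-2.33) and erythroid (0.58) markers as well. In the neutrophil list the STAT4-/- spleen HFD array had the highest level of the spleen arrays, above the range of 4.19 to 5.36 of the other 7. In the red pulp macrophage list, however, that array stayed at a spleen level, 1.43, as on the WT spleen HFD array (1.43). The HDC-/- marrow control array read 1.89 in that list, against -0.75 to 0.32 on the other marrow arrays. None of the 7 adipocyte markers that passed the filter was called between the tissues, their mean level was -5.96 to -4.12 in spleen and -5.04 to -3.72 in marrow, Lep was not well above background on any array and Cidea was on 2 (both marrow). Without the 4 arrays of low Y-linked signal, cell cycle genes were called lower in 2 of 10, neutrophil markers in 2 of 9 and adipocyte markers in 2 of 7, and B cell markers were still higher in 8 of 8. The fit without those 4 arrays has fewer residual degrees of freedom, so its counts of calls are not directly comparable. The part of the listed cell types in the Scd1 and Fasn differences was not tested.

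**Figure D3:**
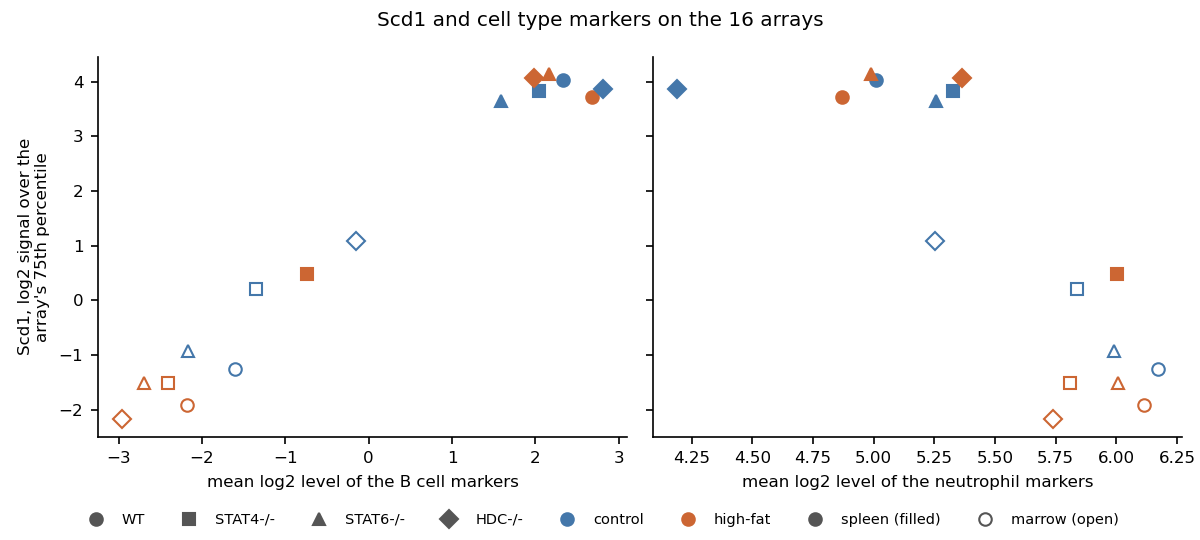
Level of Scd1 (vertical axis) against the mean level of the B cell markers (left) and of the neutrophil markers (right), both as log2 signal over the array's 75th percentile, 1 point per array. Filled points are spleen, open points marrow. The STAT4-/- spleen HFD array (0.48 for Scd1, -0.74 for B cell markers) lies among the marrow arrays on the left. Natural killer, T and conventional dendritic cell markers, not drawn, were also at their lowest spleen level on that array.

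Other genes of lipid synthesis, from lists set up for this pathway, moved in both directions between the tissues. Their counts are to be read against 14.9% of all features called higher and 17.1% called lower. Among 8 genes of precursor and NADPH supply, none was higher in spleen and 3 were lower: Pgd (-1.22, adjusted p 0.00854) and G6pdx (-1.03, adjusted p 0.0315), both of the pentose phosphate pathway, and Acly (-0.83, adjusted p 0.0165), which makes cytosolic acetyl-CoA. Of 15 further genes of elongation and desaturation, 3 were higher, led by Hacd3 (1.35, adjusted p 0.00880), a dehydratase of the elongation cycle, and Hsd17b12 (0.84, adjusted p 0.0227), its ketoreductase, and 5 were lower, led by the elongase Elovl3 (-1.59, adjusted p 0.0439) and Hacd2 (-1.19, adjusted p 0.0105). Elovl2 did not pass the filter. Of 12 regulators of lipogenesis, 2 were higher, Nr1h3 (2.70, SE 0.43, adjusted p 0.00194, 8 of 8 pairs), which encodes liver X receptor alpha, and Insig1 (0.93, adjusted p 0.0185), which retains SREBPs in the endoplasmic reticulum. The regulators Mid1ip1 (-0.92, adjusted p 0.0172), a homologue of Thrsp, Nr1h2 (-0.84, adjusted p 0.0378) and Rxra were lower.

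Glycerolipid assembly and acyl-CoA activation had 1 gene higher of 11, Lpin1 (1.68, adjusted p 0.00336), and 5 lower, led by Dgat2 (-1.56, adjusted p 0.00930), which completes triglycerides, and Acsl1 (-1.55, adjusted p 0.00272), which activates fatty acids. In the list of sterol genes driven by SREBP2, none of 10 was higher and 3 were lower, among them Idi1 (-1.08, adjusted p 0.0133), an isomerase of the mevalonate pathway. The list medians were -0.24 (precursors), -0.08 (elongation and desaturation), -0.08 (regulators), -0.40 (glycerolipids) and -0.43 (sterols), against -0.06 over all features. Without the 4 arrays of low Y-linked signal the calls fell to 0 of 8, 1 of 15, 1 of 12, 3 of 11 and 1 of 10, and Pgd (adjusted p 0.0535), Elovl3 (adjusted p 0.114) and Insig1 (adjusted p 0.222) were not called, while Nr1h3 was (2.57, adjusted p 0.0203). Lpin1 was not called with normexp (0.53, adjusted p 0.130), and without the 2 arrays nearer the other tissue the sterol list had 1 gene higher and 6 lower. Leaving out the 4 arrays of low Y-linked signal took the calls over all features from 9204 to 3818. That fit has fewer arrays and fewer residual degrees of freedom, so fewer calls cannot be told apart from lost power.

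The second comparison was HFD against control diet. No gene of the pathway was called: of all 28783 features the shares called were 0% in spleen, 0% in marrow, 0% over both tissues and 0% for the difference between tissues. The numbers with an unadjusted p under 0.05 were 1302, 1737, 3629 and 320. All values below are therefore differences that did not pass the test, and the median of all features itself was 0.15 in spleen, 0.11 in marrow and 0.13 over both. With quantile normalization these medians were 0.05, 0.03 and 0.04.

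Scd2 was above its matched control array on HFD in all 8 pairs, as were 0.9% of all features. In spleen, control and HFD arrays read 0.84 and 1.70 in WT, 1.63 and 2.35 in STAT4-/-, 1.34 and 1.39 in STAT6-/-, and 1.21 and 2.13 in HDC-/-. In marrow they read 0.65 and 1.49 in WT, 1.69 and 1.81 in STAT4-/-, 0.81 and 1.46 in STAT6-/-, and 1.32 and 2.41 in HDC-/-. The diet groups overlapped in both tissues, since the STAT4-/- control arrays were above the STAT6-/- HFD array in spleen and above the WT and STAT6-/- HFD arrays in marrow. The fitted difference was 0.66 over both tissues (SE 0.18, 1.58-fold, adjusted p 0.387, limma), 0.64 in spleen (SE 0.26, adjusted p 0.771) and 0.68 in marrow (SE 0.26, adjusted p 0.698). Within WT and STAT6-/- alone, where Y-linked signal was alike on both diets, it was 0.60 over both tissues. The means within scan groups were 0.80 and 0.48 in spleen and 0.48 and 0.87 in marrow.

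Scd1 had the opposite sign in marrow, where all 4 HFD arrays (-2.18 to -1.51) lay below all 4 control arrays (-1.26 to 1.09), a separation found as lower on HFD for 1.12% of all features. Its difference there was -1.55 (SE 0.63, adjusted p 0.698). The pair differences were -3.27 in HDC-/- and -1.70 in STAT4-/-, the genotypes whose control arrays had low Y-linked signal, and -0.65 in WT and -0.58 in STAT6-/-. With WT and STAT6-/- alone the marrow difference was -0.62, and without the pair that holds the HDC-/- marrow control array it was -0.98. In spleen the pairs differed by -0.30 in WT, -3.34 in STAT4-/-, 0.50 in STAT6-/- and 0.21 in HDC-/-, a fitted -0.73 (SE 0.63, adjusted p 0.771). This value rests on the STAT4-/- pair and was 0.13 without the 2 arrays nearer the other tissue and 0.10 in WT and STAT6-/- alone. Over both tissues the value was -1.14 (SE 0.44, adjusted p 0.387), and -0.42 without the 2 arrays nearer the other tissue. The fitted diet difference was below 0 for all 8 B cell markers in both tissues (median -0.89 in spleen and -1.21 in marrow, none called). Over all features it was above 0 for 64.1% in spleen and 59.7% in marrow. In spleen the mean of the B cell list fell on HFD in STAT4-/- (2.05 to -0.74) and HDC-/- (2.81 to 1.99). It rose there in WT (2.33 to 2.68) and STAT6-/- (1.58 to 2.17), and in marrow it fell in every genotype. The natural killer, T and conventional dendritic cell lists also fell on HFD in the STAT4-/- spleen pair and the HDC-/- marrow pair. The part of the B cell markers or of these lists in the Scd1 values was not tested.

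Elovl6 and Fasn were likewise lower on HFD in all 4 marrow pairs, which with Scd1 made 3 of 10 genes, against 4.75% of all features. Elovl6 pairs differed by -2.96 in HDC-/-, -0.84 in STAT4-/-, -0.74 in WT and -0.09 in STAT6-/-. Its fitted marrow difference of -1.16 (SE 0.41, adjusted p 0.698) became -0.56 without the HDC-/- marrow control array and -0.41 in WT and STAT6-/- alone. The 8 pro-B and pre-B cell markers also had negative values in marrow (median -2.48, none called). Their mean level went from 1.89 on control diet to -4.05 on HFD in HDC-/- and from -0.40 to -2.45 in STAT4-/-. In STAT6-/- it went from -1.95 to -3.01 and in WT from -1.505 to -2.124. The part of these markers was not tested. Pairs of Fasn differed by -0.42 to -0.20 in marrow, a fitted -0.35 (SE 0.26, adjusted p 0.714), and by -0.88 to 0.44 in spleen.

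**Figure D4:**
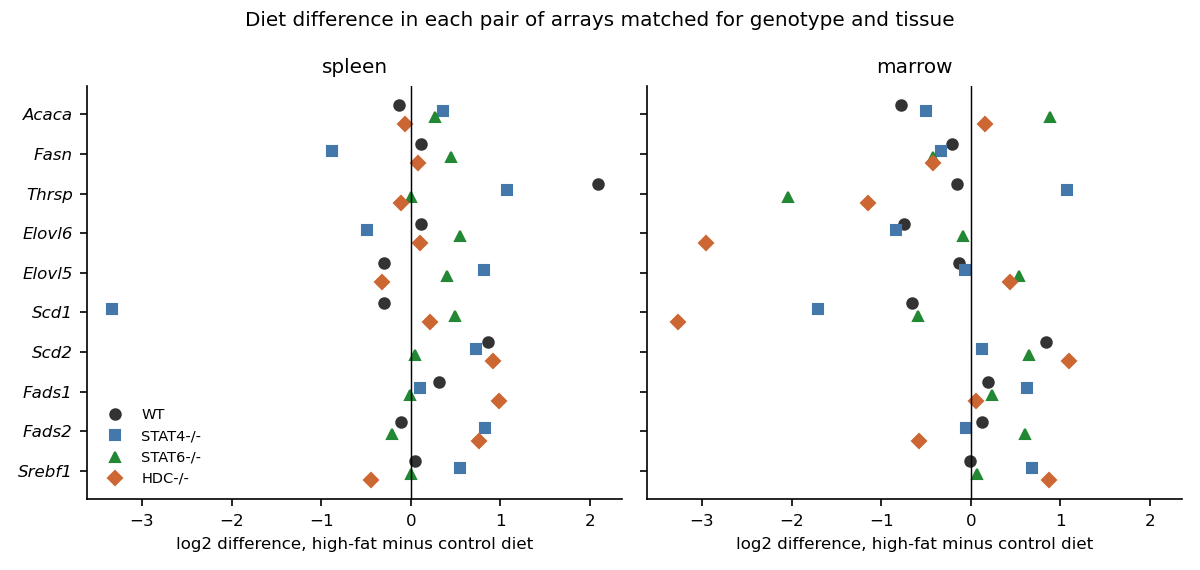
Log2 difference between HFD and control diet for each gene in each pair of arrays matched for genotype and tissue, spleen on the left and marrow on the right; 1 symbol per genotype. Scd2 lies to the right of 0 in all 8 pairs, and the values farthest to the left are those of Scd1 in STAT4-/- spleen (-3.34) and in HDC-/- marrow (-3.27).

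In marrow, Scd2 and Fads1 were the 2 of 10 genes higher on HFD in all 4 pairs (7.72% of all features), and in spleen Scd2 was the only 1 of 10 (7.01%). Fads1 was higher in 7 of 8 pairs, the exception being STAT6-/- spleen at -0.01, with a fitted difference of 0.31 over both tissues (SE 0.18, adjusted p 0.398). Fads2 and Elovl5 each had 4 of 8 pairs higher, with 0.17 (SE 0.20) and 0.17 (SE 0.19). Acaca differed by 0.02 (SE 0.21, 95% interval -0.44 to 0.49). Srebf1 was higher in 6 of 8 pairs, with 0.22 (SE 0.19, adjusted p 0.522), and its WT pairs differed by 0.05 in spleen and -0.01 in marrow. Thrsp ranged from -2.04 (STAT6-/- marrow) to 2.09 (WT spleen), and these 2 extremes each rest on an array without signal well above background. The difference between the diet effects of spleen and marrow had an adjusted p of 1 for every one of the 10 genes.

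Among the pathway lists, none of the genes was called for diet. The 10 sterol genes all had positive differences in marrow (median 0.55), against 59.7% of all features. In spleen 6 of 10 did (median 0.06), which is near the 64.1% of all features. Fdft1 (squalene synthase) read 1.27 in marrow (SE 0.45, adjusted p 0.698, limma). The sterol regulators Insig1 (1.53, SE 0.35) and Srebf2 (0.99, SE 0.34) were higher in 4 of 4 marrow pairs (7.72% of all features), with the same adjusted p of 0.698. Mlx, the partner of the carbohydrate response factor ChREBP, was higher in 8 of 8 pairs (0.9% of all features), by 0.82 (SE 0.23, adjusted p 0.387). Gpam, the first acyltransferase of glycerolipid synthesis, was lower in 4 of 4 marrow pairs (-1.50, SE 0.41, adjusted p 0.698), as were 4.75% of all features. These single genes were chosen after their values were seen. Their values include the STAT4-/- and HDC-/- pairs, whose diets differ in Y-linked signal, and are not given for WT and STAT6-/- alone.

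The third set of comparisons set each knockout against WT, averaged over tissues and diets. The 3 comparisons share the WT arrays, so their values are given side by side and are not independent. None of the 10 genes was called in any of them. The shares called over all features were 0.0174% for STAT4-/-, 0.0313% for STAT6-/- and 0.153% for HDC-/-, and 0.0104% for HDC-/- against STAT6-/-, which shared scan groups. With each array left out in turn, the number of features called ran from 3 to 8 for STAT4-/- (5 with all arrays), from 3 to 16 for STAT6-/- (9), from 7 (without WT marrow HFD) to 237 (without HDC-/- marrow HFD) for HDC-/- (44), and from 2 to 14 for HDC-/- against STAT6-/- (3). It was 4 for HDC-/- without the 4 arrays of low Y-linked signal, a fit with fewer residual degrees of freedom.

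In HDC-/-, all 10 genes had a positive difference from WT, against 43.4% of all features, with a median of 0.56 against -0.07 over all features. The 10 genes share the arrays, so their signs are not independent. The count was 9 of 10 with normexp and 8 of 10 with the Y-linked level as a covariate. It was 8 of 10 without the HDC-/- marrow control array and 8 of 10 without the 4 arrays of low Y-linked signal. Acaca was the gene whose 4 HDC-/- arrays (1.46 to 1.65) all lay above the 4 WT arrays (0.65 to 1.43), a separation seen as higher for 0.789% of features, and its difference was 0.55 (SE 0.30, adjusted p 0.537). It was 0.00 when the mean of all 3 Acaca probes was used. Fads1 read -1.78, -0.79, -0.78 and -0.72 in HDC-/- and -1.92 to -1.49 in WT, a difference of 0.71 (SE 0.25, 1.64-fold, adjusted p 0.332). Fasn (0.44, SE 0.26), Scd2 (0.60, SE 0.26) and Srebf1 (0.54, SE 0.26) were also higher in 4 of 4 pairs, which made 5 of 10 genes with Acaca and Fads1, against 6.39% of all features. Fads2 was higher in 3 of 4 pairs (0.66, SE 0.29, adjusted p 0.443). The largest value, 1.08 for Thrsp (SE 0.50, adjusted p 0.476), includes the WT spleen control array where Thrsp was not well above background. With normexp, Fads2 and Thrsp differed by 0.07 and 0.06, and Fasn turned to -0.06.

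**Figure D5:**
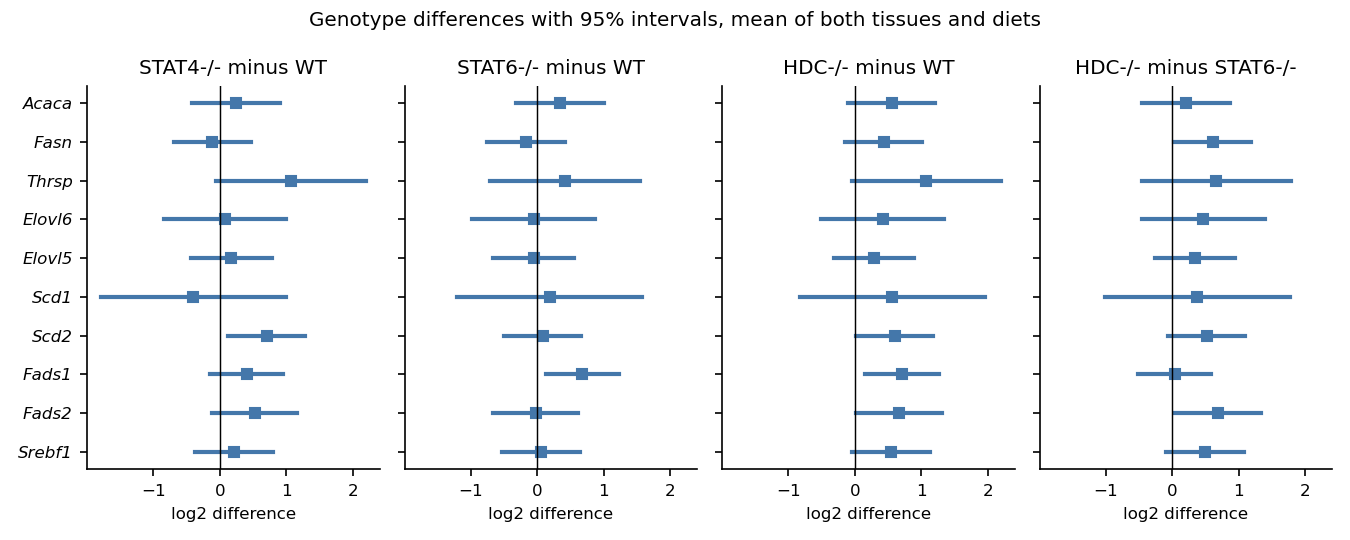
Log2 differences between genotypes for the 10 genes, as limma estimates (squares) with 95% intervals (bars), averaged over tissues and diets. None was called. All 10 estimates are above 0 for HDC-/- against WT (43.4% of all features) and for HDC-/- against STAT6-/- (40.2%).

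Against STAT6-/-, the HDC-/- arrays again had positive differences for all 10 genes (median 0.48, all features -0.09), against 40.2% of all features. The count was 6 of 10 with normexp, 7 of 10 without the HDC-/- marrow control array and 8 of 10 with the Y-linked covariate. The largest were Fads2 (0.69, SE 0.29, adjusted p 0.752), Thrsp (0.66, SE 0.50, adjusted p 0.875) and Fasn (0.61, SE 0.26, adjusted p 0.759), from probes that were not well above background on 2, 1 and 1 of the STAT6-/- arrays. All 3 turned negative with normexp (-0.30, -0.19 and -0.11). Elovl5, Thrsp and Srebf1 were higher in 4 of 4 pairs, as were 4.33% of all features. In STAT6-/-, Fads1 was the 1 gene above WT in 4 of 4 pairs (6.4% of features), with spleen arrays at -0.48 and -0.49 and marrow arrays at -1.74 and -1.51, and a difference of 0.68 (SE 0.25, adjusted p 0.590). In the arrays labelled STAT4-/-, Scd2 (0.70, SE 0.26, adjusted p 0.461) and Fads1 (0.40, SE 0.25, adjusted p 0.597) were above WT in 4 of 4 pairs (7.62% of features), where the median of all features was itself 0.20, or 0.04 with quantile normalization. Scd1 had intervals of -1.79 to 0.99 for STAT4-/-, -1.21 to 1.58 for STAT6-/- and -0.83 to 1.95 for HDC-/-, the widest of the 10 genes.

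Diet effects that differed from that of WT were fitted with only 3 residual degrees of freedom. The shares of features called were 0% for STAT4-/-, 0% for STAT6-/- and 0.00695% for HDC-/-, and no gene of the pathway was among them. The lowest unadjusted p-values were those of Thrsp in STAT6-/- (-1.99, SE 0.65, adjusted p 0.976, limma) and in HDC-/- (-1.59, SE 0.65, adjusted p 0.388). Both subtract the WT diet effect, which includes the WT spleen control array, where Thrsp was not well above background. The STAT6-/- value also includes the STAT6-/- marrow HFD array, where Thrsp was not well above background either. For Scd1 the values were -2.04 in STAT4-/- (SE 1.04, adjusted p 0.959), 0.44 in STAT6-/- and -1.05 in HDC-/-.

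Patterns across arrays were described by Pearson's r of levels centred within each tissue, over 16 arrays that share diet, genotype and cell mixture, among 18664 named genes. Scd1 was most like Gramd4 (r 0.98), Mllt6 (0.97) and Tmem64 (0.97), and without the 2 arrays nearer the other tissue these were 0.95, 0.92 and 0.87. Elovl6 was most like Ndufaf6 (0.93, and 0.76 without those arrays), Mgmt (0.92) and 4933439C10Rik (0.91), and Acaca was most like Txlna (0.95), Eef1akmt1 (0.90) and Scamp3 (0.89). For Elovl5 the nearest were Dnpep (0.88), Ctns (0.87) and Ccz1 (0.87), and for Fads1 they were Mtx2 (0.88), Cenpm (0.88) and Nt5dc2 (0.87). Scd2 was nearest Bag4 (0.87), E2f2 (0.85) and Btf3l4 (0.84), and Srebf1 was nearest Snx15 (0.85), H1f0 (0.85) and Ccar2 (0.84). Among the 10 genes, Scd1 followed Fasn with r 0.77 and Elovl6 with r 0.75. By likeness to Scd1 these ranked only 949 and 1115 among the 18664 named genes. Without those 2 arrays r was 0.35 with Fasn and 0.84 with Elovl6. Within this set Srebf1 was nearest Elovl5 (0.62, rank 241) and Scd2 (0.56, rank 461). It had r 0.11 with Fasn (0.42 without those 2 arrays) and -0.40 with Scd1 (-0.49).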

How the data were processed

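The files are scanner output of 16 one-colour Agilent arrays, and the intensity values used (processed signal, background-subtracted) were deposited by the authors; per the file headers they were made with Agilent Feature Extraction 11.0.1.1. Members and gene lists were chosen with earlier results of these data known. In R 4.3.3, spots of a probe were averaged as log2 intensity, 305 of 39429 probes that had no unflagged spot on an array were left out, and each array was centred on its 75th percentile. A symbol was found for 69.1% of probes, from the accession alone. A probe without a mapped accession stood as its own feature, so such a probe of a member would be missed. The brightest probe stood for a gene. Features well above background on 2 or more arrays were kept. limma 3.58.1 (lmFit, eBayes, two-sided) fitted 1 mean per genotype and tissue plus 1 diet term per tissue, with 6 residual degrees of freedom; diet by genotype used all pairwise terms. The number of arrays, 1 per combination, limits the precision, and whether matched pools are independent is not given. In the main fit, p-values measure only how the diet differences varied among genotypes within a tissue. They hold no spread between scan groups and no spread of the tissue difference among genotypes. Named genes were all 10 members, per list the 2 largest changes each way among those called (otherwise the 2 smallest p), and the 3 genes most like each member well above background on all arrays. Acly, Rxra, Scd3, Scd4 and the diet examples were chosen after their values were seen. For the sterol list, 1 gene that the rule names is not reported here. Alternatives were other normalization, background correction, probe rule, filters, prior, model, a Y-linked covariate, subsets of arrays and each array left out. The normexp alternative changed the signal too, from the processed to the median spot signal. The scripts were tested on simulated data. Figures used matplotlib. No spot was saturated.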

Additional observations from a re-analysis of the deposited data

Results flagged for a closer look

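The level of each of the 10 genes was compared among the arrays of a tissue (8) and of a tissue and diet (4) by the gap of the extreme array to its nearest neighbour as a share of the range. The limit was one that about 1 set in 20 passes by chance, and in 60 such sets 7 extremes passed. The sets of 4 lie within those of 8 and all genes share the arrays, so the 60 are not independent. The count therefore cannot be read against that rate. The spleen HFD array labelled STAT4-/- was low for Scd1, at 0.48 against 3.64 for the next of 8 spleen arrays and 3.73 for the next of 4 HFD spleen arrays. It was also low for Fasn, at -4.58 against -3.70 and -3.33. The HDC-/- marrow control array was high for Elovl6, at 0.0311 against -1.65 for the next marrow array, and for Fads1, at -0.78 against -1.74 for the next control marrow array. These 2 arrays are those that lay nearer the other tissue over all features. Thrsp was low on the WT spleen control array, at -9.18 against -6.53 for the next, and was not well above background there.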

How the results depend on the processing

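Of the 26 changes of single genes followed through the alternatives, 5 turned direction, all with normexp, which changed both the starting signal and the background correction: Fads2 and Fasn in HDC-/- against STAT6-/- (-0.30 and -0.11), Thrsp in the same comparison (-0.19), Fasn in HDC-/- against WT (-0.0573) and Fasn on HFD in marrow (0.0062). None of these had been called, and all concern dim probes; normexp adds 50 units to every spot, against signals of 254 or less for Fasn. The number of the 10 genes called was 2 between the tissues in most settings and 2 to 3 over all of them, with each array left out in turn giving 2 to 3. Under normexp the 2 were Scd1 and Thrsp, not Fasn. Over all features, the 9204 calls between the tissues became 5760 without the WT marrow control array, 5947 without the STAT4-/- spleen control array, 6002 without the WT spleen HFD array and 6120 without the STAT4-/- marrow control array. Scd1 stayed called in all 27 alternatives (4.04 to 5.20), Fasn in 26 (1.17 to 1.47 where called). None of the 10 genes was called for diet or between genotypes in any alternative; the diet-by-genotype terms had no alternative. The scan group could not be fitted as a random block with the genotype-by-tissue means, which already hold it; an additive model with it, and the fits without the 4 arrays of low Y-linked signal, were chosen after seeing the data. The consensus correlation was 0.0019. Scan groups follow tissue and pairs of genotypes, whose terms take up most of the scan-group differences first. The correlation therefore cannot show how large those differences are. No paired analysis by replicate number was possible because each combination has 1 array, so the groups compared share fewer than 2 replicate numbers. The matched pairs in the text have genotype, tissue or diet in common, not a replicate number. Diet pairs are held by the genotype-by-tissue means of the model reported. Pairs of tissues and pairs of genotypes are counts given beside the fit and are not terms of it.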
